A study of Mus musculus with 12 samples.

Results

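Oxidative phosphorylation genes were compared between pEGFR-Hi and pEGFR-Lo glioma cells sorted from mouse brains. Members were chosen by gene name, with earlier results of these data known. The rule took genes named Nduf, Sdha to Sdhd, Uqcr, Cox4 to Cox8, Atp5 or Cyc1. Atp5o and Atp5j match these names but were left out. Each gene was read from its brightest probe set over all arrays. This gave 88 of the 19938 genes measured. Of these, 80 encode subunits of complexes I to V and 8 encode assembly or supercomplex factors that carry a matching name. Among the 80 subunits, 8 are isoforms restricted to certain tissues or conditions, and the remaining 72 are the ubiquitous set. A further 6 probe sets were paired with several gene symbols and were not used.

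Oxidative phosphorylation takes place in the inner mitochondrial membrane. Complex I oxidizes NADH and complex II oxidizes succinate, and both pass electrons through coenzyme Q to complex III, then through cytochrome c to complex IV, which reduces oxygen. The proton gradient built along the way drives complex V, the ATP synthase. Most subunits are encoded in the nucleus and a few in mitochondrial DNA, so the complexes need both genomes. Neurons rely heavily on this pathway, and glioma cells combine it with glycolysis.

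Both tumor lines derive from Ink4a/Arf-null mouse neural progenitor cells that carry the human EGFRvIII receptor, a constitutively active EGFR. They were injected into the brains of syngeneic FVB mice, 2 µl at 200000 cells per µl, and differ in EGFRvIII phosphorylation, high in pEGFR-Hi and low in pEGFR-Lo. There were 6 mice per group and 1 array per mouse, and the age of the mice was not given in the sources used here. Each group is 1 line, and brains were taken near the median survival of that group, which was shorter for pEGFR-Hi, so line and time since injection cannot be told apart. ZsGreen-positive cells were sorted after removal of myelin and red blood cells, and the RNA was measured on Affymetrix Mouse Gene 1.0 ST arrays. In such bulk samples, fewer cells of a type and less RNA per cell cannot be told apart.

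All values are log2 RMA values, and a difference is pEGFR-Hi minus pEGFR-Lo with its standard error (SE) from limma over all genes. A gene passed where its p, adjusted over all genes by Benjamini-Hochberg, was under 0.05. A stricter call asked for 0.01 together with a 2-fold difference. Background was set at 4.10, the level below which 95% of 1027 olfactory receptor genes lay, and 86 of the 88 members were above it. Array medians lay between 4.81 and 4.88. Correlations of arrays lay between 0.991 and 0.994 inside the pEGFR-Hi group, between 0.985 and 0.994 inside the pEGFR-Lo group, and at 0.944 to 0.959 across groups. Some markers of other brain and blood-derived cells were below background and others were above it and differed between groups. Csf1r and Slc17a7 were below it, with means (pEGFR-Hi, then pEGFR-Lo) of 3.54 and 3.74 and of 3.90 and 3.87. Of 6 neuron markers 3 were above background. Gad1 was higher in pEGFR-Lo, at 4.72 against 5.25, as was Snap25, not above background, at 3.58 against 4.40. The other 4 did not pass, among them Syt1, at 4.24 against 4.06. Of 6 endothelial markers 2 were above background, and Flt1 was higher in pEGFR-Hi, at 5.04 against 4.21, while the other 5 did not pass. Of 5 astrocyte markers 3 were above background, with Slc1a2 lower in pEGFR-Hi (4.99 against 7.70) but Gfap higher (9.81 against 8.38). The mean of the neuron list ran from 3.83 to 3.99 in pEGFR-Hi mice and from 3.94 to 4.25 in pEGFR-Lo mice, and that of the astrocyte list from 5.05 to 5.61 and from 5.42 to 5.91. Of the 7 microglia and macrophage markers 3 were above background, and P2ry12 was lower in pEGFR-Hi, at 4.69 against 6.43. The other 6 did not pass. The difference was positive for 3 of the 7, among them Cx3cr1, at 5.28 against 5.13. The mean of these 7 ran from 3.77 to 3.97 in pEGFR-Hi mice and from 3.98 to 4.34 in pEGFR-Lo mice, and the part of these cell types in the results below was not tested. Of 6 progenitor markers 2 were higher in pEGFR-Hi, 1 was higher in pEGFR-Lo and 3 did not pass. Sox2 (9.49 against 8.99) and Prom1 (5.94 against 3.74) were higher in pEGFR-Hi, and Fabp7 (10.72 against 12.08) was lower. The pEGFR-Lo mean of Prom1 was below background. Sox2 and Olig2 were well above background in both groups.

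Most subunits had small negative differences, that is lower values in pEGFR-Hi. Of the 88 members, 24 were higher in pEGFR-Lo against 8 in pEGFR-Hi, while 56 did not pass. Over all genes, 16.6% were higher in pEGFR-Lo and 19.4% higher in pEGFR-Hi. Among the 72 ubiquitous subunits, 23 were higher in pEGFR-Lo against 3 in pEGFR-Hi, while 46 did not pass, against 22.5% and 27.1% of the 13519 genes above background. Their median difference was -0.13, with the middle 50% of genes between -0.26 and -0.01, while the median over genes above background was 0.03. The sign was negative for 56 of the 72 subunits, and for 46.8% of genes above background and 48.2% of all genes. In limma 0 members passed the stricter call, which 5.06% of all genes passed higher in pEGFR-Lo and 3.99% higher in pEGFR-Hi. With an unadjusted p under 0.05 in its place 1 member was 2-fold apart, Ndufa4l2, and SAM called 1. For comparison at a like level, 519 other genes with a mean over 10 had a median of 0.02, with 110 higher in pEGFR-Hi against 127 in pEGFR-Lo. The 47 subunits with a mean over 10 had a median of -0.12, with 1 higher in pEGFR-Hi against 15 in pEGFR-Lo.

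**Figure D1:**
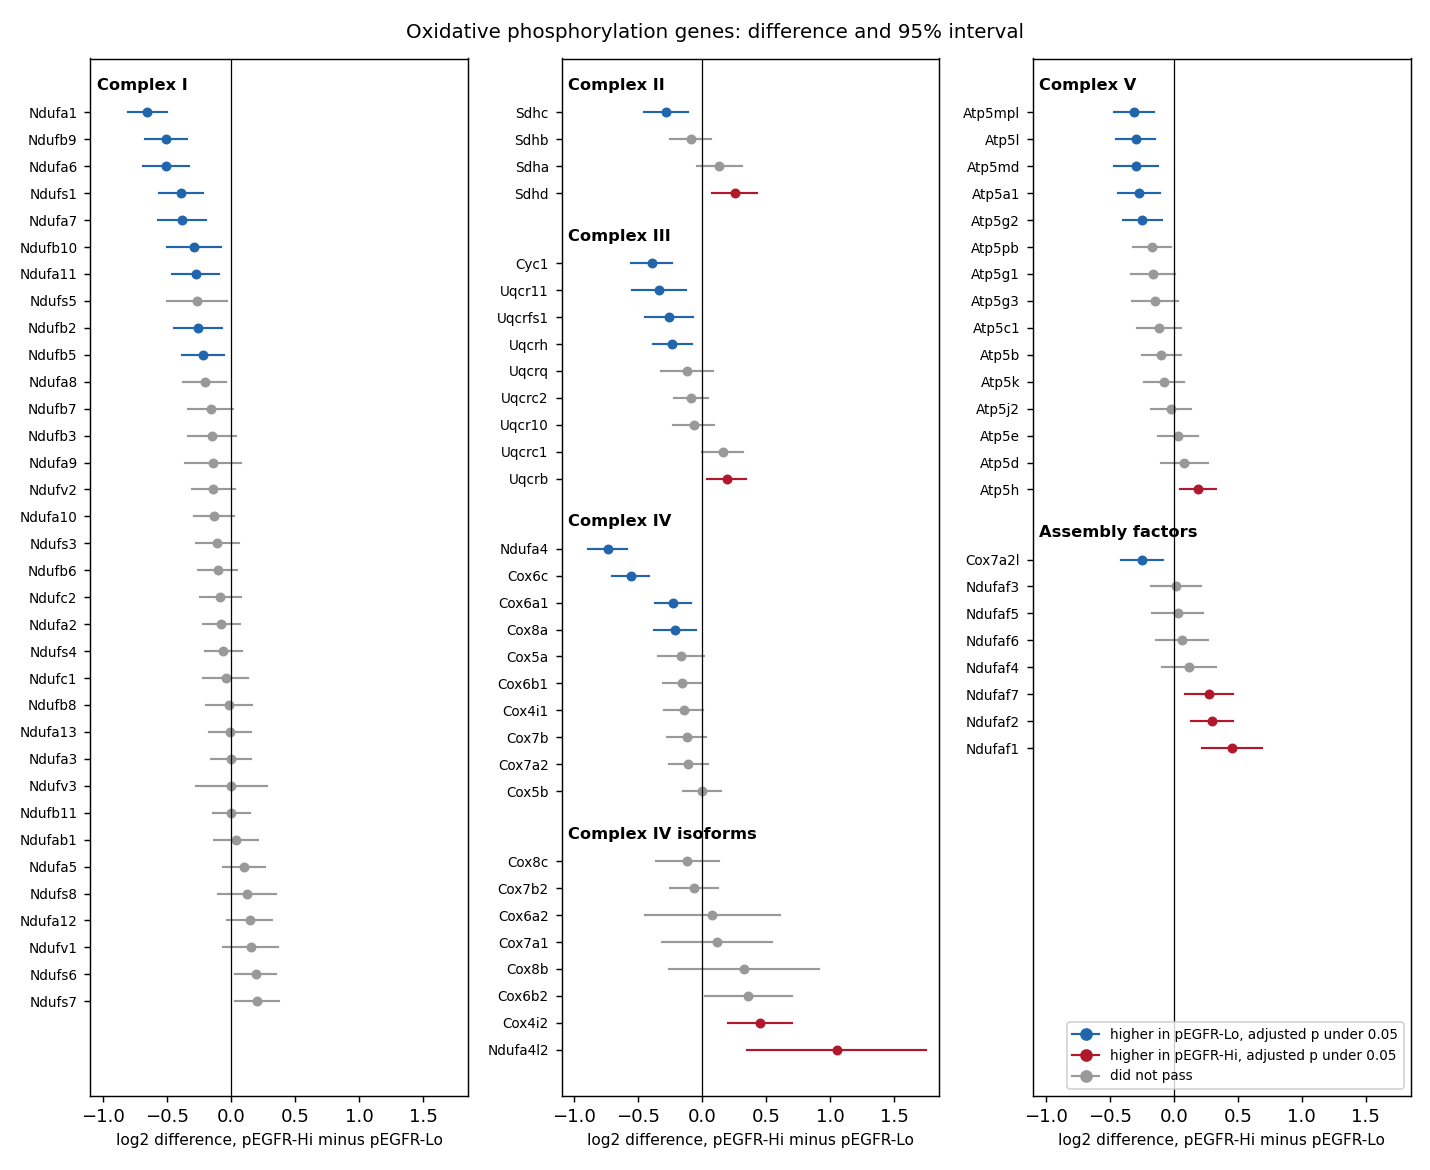
Log2 difference (pEGFR-Hi minus pEGFR-Lo, x axis) of each of the 88 genes, with its 95% interval, grouped by complex; blue and red mark genes that passed limma's test and grey those that did not. All points but Ndufa4l2, at 1.05, lie between -0.74 and 0.46.

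Over the 72 ubiquitous subunits the SE of a difference ran from 0.0633 to 0.13, with a median of 0.0775. It was larger for some isoforms and reached 0.329 for Ndufa4l2. For the 46 ubiquitous subunits that did not pass, the 95% intervals stayed within -0.50 (Ndufs5) and 0.37 (Ndufs7). In 11 of the 72 the groups did not overlap, each of them higher in pEGFR-Lo; 15.5% of genes above background and 11.1% of all genes separated in that direction, and 12.2% of all genes in the other.

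The promoters of some members are printed here because the shared transcription factors of these genes are known: NRF1, GABP, ERR factors and YY1 bind promoters of many respiratory genes. RefSeq promoters (GRCm38.p6, 250 bases before to 50 after the start) were found for 71 of the 88 members. The 200 bases before the start are shown, 5′ to 3′, with matches to the NRF1 letters (GCGCA, any 1 base, GCGC) or the GABP letters CCGGAAGT, on either strand, in capitals. Ndufa4 and Ndufa1 had the largest differences of the ubiquitous subunits with a promoter here and hold no match. Cox6a1, Ndufa11 and Atp5g2 were higher in pEGFR-Lo, and Sdhd and Atp5h were higher in pEGFR-Hi.

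Ndufa4 (chr6:11907451-11907650, minus strand): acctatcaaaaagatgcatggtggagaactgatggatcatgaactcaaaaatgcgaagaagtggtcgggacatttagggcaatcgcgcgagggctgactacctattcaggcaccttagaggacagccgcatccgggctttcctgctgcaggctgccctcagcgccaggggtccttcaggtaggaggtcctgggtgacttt
Ndufa1 (chrX:37191239-37191438, minus strand): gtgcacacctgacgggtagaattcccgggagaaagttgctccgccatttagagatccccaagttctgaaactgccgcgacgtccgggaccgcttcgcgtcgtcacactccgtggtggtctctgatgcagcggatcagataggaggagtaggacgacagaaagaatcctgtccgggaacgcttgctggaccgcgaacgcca
Cox6a1 (chr5:115348959-115349158, minus strand): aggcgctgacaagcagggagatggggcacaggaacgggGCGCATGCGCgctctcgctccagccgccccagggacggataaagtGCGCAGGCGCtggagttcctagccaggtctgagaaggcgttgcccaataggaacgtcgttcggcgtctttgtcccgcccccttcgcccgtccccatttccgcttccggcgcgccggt
Ndufa11 (chr17:56717562-56717761, plus strand): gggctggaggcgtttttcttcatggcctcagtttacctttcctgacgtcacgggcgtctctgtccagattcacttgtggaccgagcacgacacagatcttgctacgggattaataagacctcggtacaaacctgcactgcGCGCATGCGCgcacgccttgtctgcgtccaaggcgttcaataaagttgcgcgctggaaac
Atp5g2 (chr15:102671048-102671247, minus strand): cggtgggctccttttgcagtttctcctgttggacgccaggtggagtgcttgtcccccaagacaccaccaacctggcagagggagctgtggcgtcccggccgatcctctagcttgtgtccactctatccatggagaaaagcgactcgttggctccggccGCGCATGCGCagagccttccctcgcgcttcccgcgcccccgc
Sdhd (chr9:50603850-50604049, minus strand): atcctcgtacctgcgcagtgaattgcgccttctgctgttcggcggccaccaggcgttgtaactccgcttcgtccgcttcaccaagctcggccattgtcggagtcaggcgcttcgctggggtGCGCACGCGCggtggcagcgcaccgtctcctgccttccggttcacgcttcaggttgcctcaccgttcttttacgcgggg
Atp5h (chr11:115419920-115420119, minus strand): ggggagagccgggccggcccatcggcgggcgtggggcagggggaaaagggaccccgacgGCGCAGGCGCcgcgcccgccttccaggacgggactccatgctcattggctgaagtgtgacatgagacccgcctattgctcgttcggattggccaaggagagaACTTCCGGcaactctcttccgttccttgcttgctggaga

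NRF1 letters were found in 15 of the 60 ubiquitous subunits with a promoter, 25% against 7.17% of 17492 protein-coding genes. Both directions occurred among their holders, with 4 higher in pEGFR-Lo, 2 higher in pEGFR-Hi and a median difference of -0.12. YY1 letters, AAGATGGC, were found in 9 of 60, 15% against 3.57% of all promoters. None of these 9 passed, and their differences ran from -0.17 to 0.20. GABP letters were found in 5 subunits, 8.33% against 5.69%, of which Uqcr11, Uqcrh and Cox8a were higher in pEGFR-Lo and Atp5h was higher in pEGFR-Hi. ERR letters, TCAAGGTCA, occurred in Sdhd and Atp5g3. A match is a description of the letters and not a binding site.

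In complex I, which has 34 measured subunits, 9 were higher in pEGFR-Lo against 0 in pEGFR-Hi, with a median of -0.10. That is 26.5% higher in pEGFR-Lo, beside 22.5% of genes above background. Ndufa1, a small membrane-arm subunit needed for assembly, had values of 9.85, 9.91 and 10.10 (lowest, median and highest) in pEGFR-Hi and 10.52, 10.58 and 10.70 in pEGFR-Lo. All pEGFR-Hi mice lay below all pEGFR-Lo mice, with a difference of -0.65 (SE 0.072, 1.57-fold, limma adjusted p = 2.11e-06). Ndufb9, an accessory subunit of the membrane arm, ran from 10.04 to 10.28 with a median of 10.16 in pEGFR-Hi and from 10.46 to 10.82 with a median of 10.67 in pEGFR-Lo. These groups did not overlap, with a difference of -0.51 (SE 0.078, limma adjusted p = 6.91e-05). Ndufa6 showed a similar separation, 8.90 to 9.23 against 9.42 to 9.65 (difference -0.51, limma adjusted p = 0.000133).

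The core subunits of complex I, some of which carry the flavin or iron-sulfur clusters, did not share a direction. Only Ndufs1 of the 6 measured passed, at 7.23, 7.46 and 7.57 in pEGFR-Hi and 7.74, 7.78 and 8.02 in pEGFR-Lo. Its groups did not overlap (difference -0.39, SE 0.081, limma adjusted p = 0.00108). The median of the 6 was 0.01, with Ndufv2 and Ndufs3 at -0.14 and -0.11 and Ndufv1, Ndufs7 and Ndufs8 at 0.15, 0.20 and 0.13, none of which passed. Of the 28 accessory subunits, 8 were higher in pEGFR-Lo, with a median of -0.12. The accessory subunits that passed also included Ndufa7 at -0.38, Ndufb10 at -0.29, Ndufa11 at -0.28, Ndufb2 at -0.25 and Ndufb5 at -0.22.

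Complex II, the succinate dehydrogenase shared with the TCA cycle, was split. Sdhc, a membrane anchor, was lower in pEGFR-Hi, at 10.27, 10.43 and 10.62 against 10.62, 10.75 and 10.80 (difference -0.28, SE 0.082, limma adjusted p = 0.0121). Sdhd, the other membrane anchor, was higher in pEGFR-Hi, at 9.36, 9.43 and 9.55 against 8.96, 9.22 and 9.36 (difference 0.25, SE 0.083, limma adjusted p = 0.0235). The groups overlapped at their edges for each gene. The flavoprotein Sdha (0.13) and the iron-sulfur protein Sdhb (-0.09) did not pass.

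In complex III, 4 of 9 subunits (44.4%) were higher in pEGFR-Lo and 1 was higher in pEGFR-Hi, with a median of -0.12. For genes above background the share higher in pEGFR-Lo was 22.5%. Cyc1, the cytochrome c1 that hands electrons to cytochrome c, ran from 9.52 to 9.71 with a median of 9.65 in pEGFR-Hi and from 9.88 to 10.15 with a median of 10.04 in pEGFR-Lo. Its groups did not overlap (difference -0.40, SE 0.075, limma adjusted p = 0.000494). The Rieske iron-sulfur protein Uqcrfs1 was also lower in pEGFR-Hi, with overlap (-0.26, limma adjusted p = 0.0313). The small subunits Uqcr11 and Uqcrh differed by -0.34 and -0.23 in the same direction. Uqcrb, which lies beside the quinone site, was higher in pEGFR-Hi by 0.19 at a limma adjusted p of 0.0497. The large matrix subunits Uqcrc1 and Uqcrc2 did not pass, at 0.16 and -0.09. The complex III median was -0.22 without pEGFR-Lo mice 3 and 6 and -0.20 without mouse 3 alone.

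Complex IV held both the largest decrease and the largest increase. All 10 ubiquitous subunits had a negative difference, with a median of -0.16. Of these, 4 (40%) passed, beside 22.5% of genes above background that were higher in pEGFR-Lo. Ndufa4, first assigned to complex I and now placed in complex IV, had values of 11.47, 11.65 and 11.72 in pEGFR-Hi and 12.25, 12.35 and 12.43 in pEGFR-Lo. The groups were far apart relative to their spread, with a difference of -0.74 (SE 0.073, 1.67-fold, limma adjusted p = 6.16e-07). Cox6c, an accessory subunit, ran from 11.42 to 11.66 in pEGFR-Hi and from 12.03 to 12.14 in pEGFR-Lo, with medians of 11.48 and 12.06. It also separated the groups (-0.56, SE 0.068, limma adjusted p = 6.05e-06), and its second probe set gave -0.50. Cox6a1 and Cox8a followed at -0.23 and -0.21. Cox4i1, Cox5a and Cox5b, at -0.15, -0.17 and 0.00, did not pass.

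**Figure D2:**
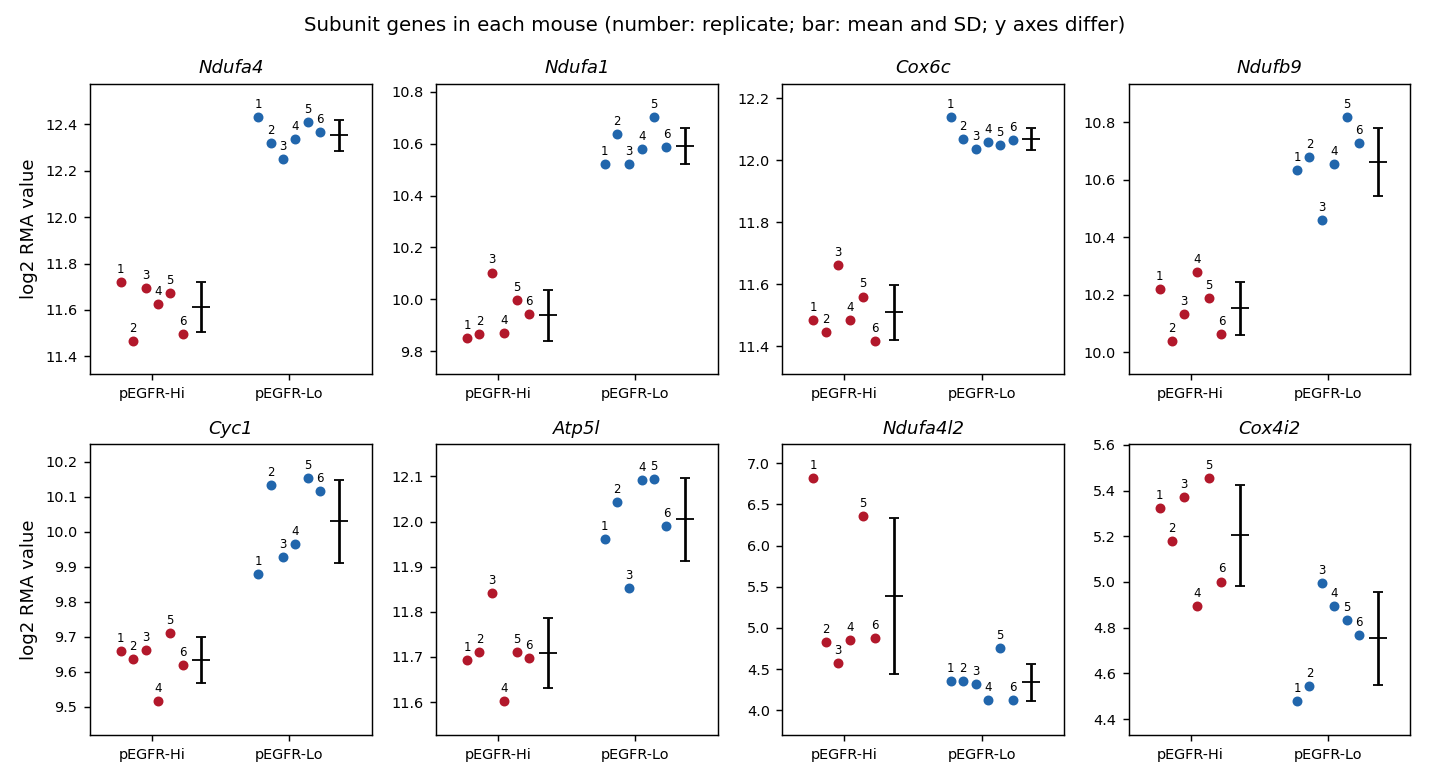
Log2 RMA value (y axis, a different range in each panel) of 8 subunit genes in each mouse, numbered by replicate, with the group mean and SD as a bar. The groups are apart for Ndufa4, Ndufa1, Cox6c, Ndufb9, Cyc1 and Atp5l, and overlap for Ndufa4l2, where pEGFR-Hi mice 1 and 5 reach 6.82 and 6.36, and for Cox4i2.

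Among the 8 isoforms of complex IV, 2 (25%) were higher in pEGFR-Hi, beside 27.1% of genes above background, and the median was 0.22. Ndufa4l2, the hypoxia-inducible paralog of Ndufa4, had values of 6.82, 4.83, 4.58, 4.85, 6.36 and 4.88 in pEGFR-Hi mice 1 to 6 and of 4.12 to 4.75 in pEGFR-Lo. pEGFR-Hi mice 1 and 5 stood apart from the other 4, and pEGFR-Hi mouse 3 lay below the highest pEGFR-Lo mouse. The difference was 1.05 (SE 0.329, limma adjusted p = 0.0195), and 0.45 without those 2 mice (limma adjusted p = 0.0125). Without pEGFR-Lo mice 3 and 6 it was 0.99 and did not pass (limma adjusted p = 0.0712). In pEGFR-Hi mice 1 and 5 the median of 16 glycolysis genes was 10.11 and 9.99. It was 9.16 to 9.47 in the other pEGFR-Hi mice and 9.73 to 10.14 in pEGFR-Lo. A link between these medians and Ndufa4l2 was not tested. Cox4i2, the isoform of Cox4i1 expressed at low oxygen and in lung, had a lowest value of 4.89, a median of 5.25 and a highest of 5.46 in pEGFR-Hi and of 4.48, 4.802 and 4.997 in pEGFR-Lo. The groups overlapped (difference 0.45, SE 0.116, limma adjusted p = 0.00554), and without the odd-numbered pEGFR-Hi mice it was 0.27 and did not pass (limma adjusted p = 0.148). The muscle isoforms Cox6a2, Cox7a1 and Cox8b and the testis isoform Cox6b2 did not pass, and Cox7b2 and Cox8c were not above background.

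In complex V, 5 of 15 subunits (33.3%) were higher in pEGFR-Lo and 1 was higher in pEGFR-Hi, with a median of -0.15. The share higher in pEGFR-Lo was 22.5% for genes above background. Among the catalytic head and central stalk, Atp5a1, the alpha subunit, was lower in pEGFR-Hi, at 10.85, 10.998 and 11.10 against 11.05, 11.27 and 11.40 (difference -0.27, SE 0.078, limma adjusted p = 0.0116). The catalytic beta subunit Atp5b was at -0.10 and did not pass, as did Atp5c1, Atp5d and Atp5e. The 3 genes for the c ring, which encode the same mature protein, all had negative differences, and only Atp5g2 passed (-0.24, limma adjusted p = 0.0115), with Atp5g1 and Atp5g3 at -0.17 and -0.15. Of the stalk and membrane subunits, Atp5mpl and Atp5l separated the groups and passed, at -0.31 and -0.30. Atp5pb also separated the groups, at -0.17, but did not pass (limma adjusted p = 0.0685). Atp5l was read by 6 probe sets, whose differences lay between -0.31 and -0.27. Atp5md passed at -0.29 with groups that overlapped. Atp5h, a peripheral stalk subunit, was higher in pEGFR-Hi, at 10.90, 11.01 and 11.05 against 10.70, 10.82 and 10.92 (difference 0.19, SE 0.068, limma adjusted p = 0.0373).

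Mouse respiratory genes have many processed copies, so a probe set can read a near-identical copy, and values of such genes are uncertain in that respect. Of 17 members with over 1 probe set, none had probe sets of opposite sign and none had probe sets over 0.3 apart in their difference. Probe sets that read near-identical copies can agree for that reason, so this agreement does not show which copy was read.

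Of 13 subunit genes of mitochondrial DNA, 2 were analysed here. COX2 did not pass, at 12.31 in pEGFR-Hi against 12.33 in pEGFR-Lo. ND3 was lower in pEGFR-Hi, at 10.99 against 11.21 (difference -0.22, SE 0.076, limma adjusted p = 0.0332).

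Of the 8 assembly and supercomplex factors of the same naming pattern, 3 were higher in pEGFR-Hi against 1 in pEGFR-Lo, while Ndufaf3 to Ndufaf6 did not pass. Ndufaf1, Ndufaf2 and Ndufaf7, which help build complex I, were higher in pEGFR-Hi by 0.46, 0.30 and 0.28, and Ndufaf1 and Ndufaf2 did not overlap between groups. Cox7a2l, a supercomplex factor, was lower in pEGFR-Hi by 0.25 on the log2 scale. In the wider list of 14 complex I assembly genes, 3 were higher in pEGFR-Hi against 0 in pEGFR-Lo, and the median was 0.18. That is 21.4% higher in pEGFR-Hi, beside 27.1% of genes above background.

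The 5 subunit genes on chromosome 15, which are Cox6c, Ndufb9, Ndufa6, Cyc1 and Atp5g2, were all higher in pEGFR-Lo, with a median of -0.51. Of the 538 other genes on chromosome 15 above background, 261 were higher in pEGFR-Lo against 58 in pEGFR-Hi, with a median of -0.26. The 75 subunits on other chromosomes had a median of -0.10, with 18 (24%) higher in pEGFR-Lo and 5 (6.67%) higher in pEGFR-Hi. Of genes above background, 22.5% were higher in pEGFR-Lo and 27.1% higher in pEGFR-Hi, so the 24% was near the general share. Ndufa4 and Ndufa1 are on chromosomes 6 and X.

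The subunits varied together from mouse to mouse. For each gene the mean over the 12 arrays was taken away, and the median over the 72 subunits ran from -0.11 to 0.01 in pEGFR-Hi mice and from -0.08 to 0.20 in pEGFR-Lo mice, so the groups overlapped. pEGFR-Lo mouse 5 was highest, at 0.20, and pEGFR-Lo mice 1 and 3, at -0.0048 and -0.08, lay within the range of the pEGFR-Hi mice. The 519 other genes with a mean over 10 ran from -0.01 to 0.02 in pEGFR-Hi mice and from -0.09 to 0.05 in pEGFR-Lo mice. Among pEGFR-Lo mice, mouse 3 was lowest and mouse 5 highest in both lists, so that part was not particular to the subunits. After group means were removed, the median correlation between pairs of subunits was 0.53 over 2556 pairs and 12 arrays, which share the same arrays and normalization. For 77 mitochondrial ribosomal genes it was 0.37, and for 60 cytosolic ribosomal genes 0.34. Odd-numbered pEGFR-Hi mice were higher than even-numbered ones by a median of 0.08 over the 72 subunits and by -0.01 over genes above background. The count of members higher in pEGFR-Lo was 10 without the even-numbered pEGFR-Hi mice and 16 without the odd-numbered ones, while over all genes it was 3314 with all mice, 2714 without the even-numbered and 2749 without the odd-numbered.

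**Figure D3:**
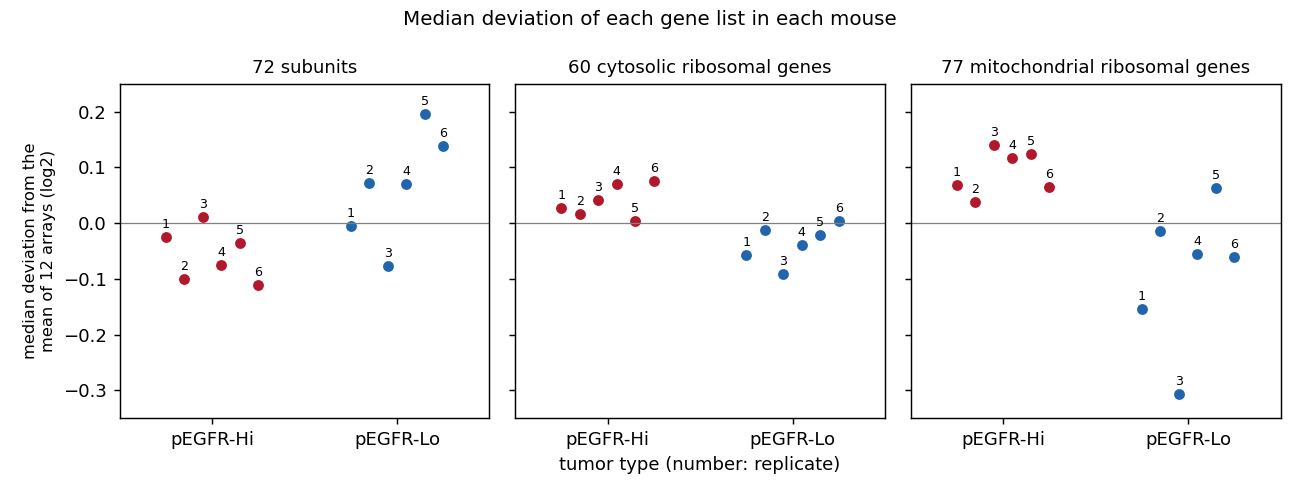
Median deviation from the mean of the 12 arrays (log2, y axis) for 72 subunits, 60 cytosolic and 77 mitochondrial ribosomal genes in each mouse, numbered by replicate. For the subunits pEGFR-Lo mouse 5 is highest at 0.20, and pEGFR-Lo mice 1 and 3 lie at -0.0048 and -0.08, within the range of the pEGFR-Hi mice.

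Other mitochondrial gene lists had medians of either sign. Of 77 mitochondrial ribosomal genes, which make the proteins encoded in mitochondrial DNA, 29 (37.7%) were higher in pEGFR-Hi against 3 in pEGFR-Lo. Their median was 0.18. Mrpl39 and Mrpl12 differed by 0.92 and 0.74, while Mrpl34 and Mrps28 differed by -0.57 and -0.25. Of 60 cytosolic ribosomal genes, 7 (11.7%) were higher in pEGFR-Hi against 1 in pEGFR-Lo, with a median of 0.07. Of genes above background 27.1% were higher in pEGFR-Hi.

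Among 18 nuclear regulators of mitochondrial genes, 8 (44.4%) were higher in pEGFR-Hi against 2 (11.1%) in pEGFR-Lo. The shares for genes above background were 27.1% and 22.5%. Gabpa, the DNA-binding subunit of GABP, and Gabpb2, a partner subunit, were higher in pEGFR-Hi by 0.92 and 1.03, and Gabpb2 passed the stricter call. Gabpb1, another partner subunit, was at -0.03 and did not pass. Gabpa and Mrpl39 are on chromosome 16, where the 20 nearest genes above background had medians of 0.56 and 0.66. Nrf1 and Tfam, the mitochondrial transcription factor, were higher in pEGFR-Hi by 0.57 and 0.63. Yy1 was at 0.10 and did not pass. Tfb2m and the nuclear receptor Esrra were lower in pEGFR-Hi, at -0.41 and -0.27.

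Some genes of pyruvate entry, glycolysis and lactate metabolism had larger differences than any ubiquitous subunit. Pdha1, the E1 alpha subunit of pyruvate dehydrogenase, was at 8.26 in pEGFR-Hi and 9.34 in pEGFR-Lo (difference -1.09, SE 0.083, limma adjusted p = 3.16e-08), and groups did not overlap. Mpc1, a mitochondrial pyruvate carrier subunit, followed at -0.92. In the same list of 22 TCA cycle and pyruvate genes, 5 were higher in pEGFR-Lo against 2 in pEGFR-Hi, which were Suclg2 (0.66) and Idh2 (0.56). That is 22.7% higher in pEGFR-Lo, beside 22.5% of genes above background. Of 16 glycolysis genes, 3 (18.8%) were higher in pEGFR-Lo against 1 in pEGFR-Hi. Ldhb, the lactate dehydrogenase subunit of oxidative tissues, differed by -2.17 and Pfkm by -1.19, while Aldoc was higher in pEGFR-Hi by 0.46.

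Electron carriers were mixed. Of 17 carrier and coenzyme Q genes, 3 (17.6%) were higher in pEGFR-Hi, beside 27.1% of genes above background. Among them were Etfa, which feeds electrons from fatty acid oxidation (0.46), and Coq2 (0.41). Cytochrome c, Cycs, was lower in pEGFR-Hi at -0.25, as was Coq9 at -0.34. Of 32 assembly genes of complexes II to V, 6 (18.8%) were higher in pEGFR-Hi, led by Atpaf1 at 0.79 and Taco1 at 0.70. In pEGFR-Lo 5 (15.6%) were higher, led by Cox14 and Uqcc3 at -0.80 and -0.81. Of 24 import genes, 3 (12.5%) passed in each direction, with Timm50 at 0.82 and Timm8a1 at -0.44.

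**Figure D4:**
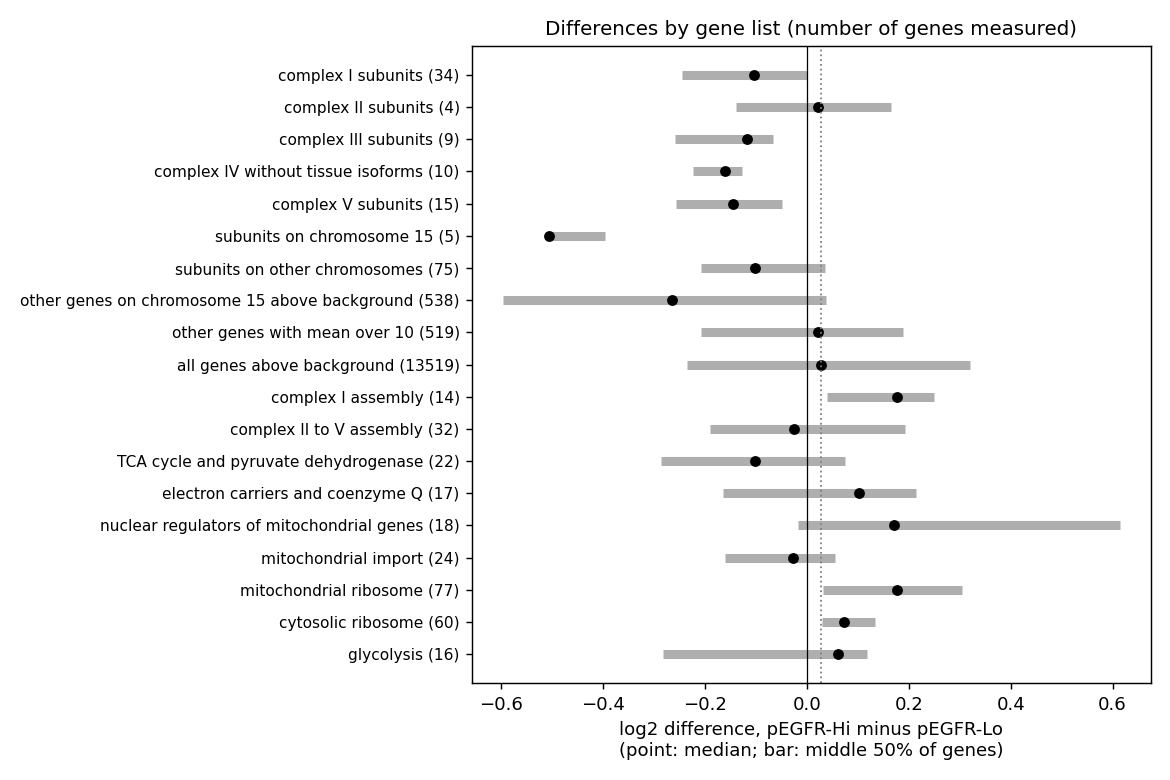
Median (point) and middle 50% of genes (bar) of the log2 difference, pEGFR-Hi minus pEGFR-Lo, for each gene list with its number of measured genes; the dotted line is the median of all genes above background. Complexes I, III, IV and V lie at -0.10 to -0.16 and the mitochondrial ribosome at 0.18.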

How the data were processed

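RNA of sorted tumor cells from 12 mice was measured on 12 arrays. The authors deposited log2 values made with RMA in Affymetrix Expression Console, which corrects background, quantile-normalizes arrays and summarizes each probe set, so a change in total RNA per cell is not visible. The build of the array design was not given in the sources used here, and chromosomes and promoters are those of RefSeq GRCm38.p6. Groups came from the labels. Of 35556 probe sets, 21789 were paired with 1 symbol, 1621 with several and 12146 with none, and the brightest per gene was used, which left 19938 genes. Groups were compared with limma 3.58.1 in R 4.3.3 (lmFit, eBayes) over all genes, with the package data.table (version 1.17.8), Python 3.11.15 and matplotlib 3.10.9. The code was tested on simulated arrays.

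Members and lists were chosen with earlier results of these data known. Named were core subunits, isoforms and their partners, in each complex up to 4 members per direction by adjusted p, and in other lists genes past 2-fold (at most 4 per direction) and up to 2 per direction. Ndufa7, Ndufb10, Ndufb2, Ndufb5, Nrf1, Tfam, Yy1 and other genes named beyond this were chosen after their values were seen. Mice of the same number did not deviate together (correlations of -0.14 to 0.10). Alternatives were SAM, renormalization, median centring, a background filter, a replicate block, trend and robust eBayes, array weights, mean probe sets and left-out arrays. Leaving out pEGFR-Hi mice 1 and 5 was chosen after seeing the data. pEGFR-Lo mice 3 and 6 were left out as the interferon-low mice. The labels do not give that grouping, which came from earlier results of these data. The number of arrays limits precision.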

Additional observations from a re-analysis of the deposited data

Results flagged for a closer look

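Among 108 tests of the spread within a group of 6 mice, 5 had 1 mouse far from the others, and chance alone gives about 1 in 20. Ndufs1 was 8.02 in pEGFR-Lo mouse 1, against 7.74 to 7.79 in the others. Cox6c was 12.14 in the same mouse, against 12.03 to 12.07. Atp5b was 11.10 in pEGFR-Lo mouse 3, against 11.30 to 11.41. Atp5h was 10.90 in pEGFR-Hi mouse 5, against 10.996 to 11.05, and Ndufa4l2 was 4.75 in pEGFR-Lo mouse 5, against 4.12 to 4.35.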

How the results depend on the processing

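The median over all subunits stayed negative, from -0.16 to -0.08, under every alternative run. Of 54 named members 28 passed. Over the alternatives 555 of their values kept their side of the threshold and 89 did not, and 19 of the 28 lost the call under at least 1 alternative. Among the named members that did not pass, 8 gained the call under at least 1 alternative, with 18 such values. The count of members higher in pEGFR-Lo, 24, was 10 without the even-numbered pEGFR-Hi mice, 10 to 29 over the alternatives and 19 to 30 with 1 array left out. The count higher in pEGFR-Hi, 8, was 5 with arrays centred on their medians, 3 without pEGFR-Lo mice 3 and 6, 4 without even-numbered and 4 without odd-numbered pEGFR-Hi mice, and 5 to 8 with 1 array left out, at 5 without pEGFR-Hi mouse 3, pEGFR-Lo mouse 1 or pEGFR-Lo mouse 3. The stricter call higher in pEGFR-Hi, 0 in limma, was 1 without even-numbered pEGFR-Hi mice and 1 with SAM, and 0 to 1 with 1 array left out (1 without pEGFR-Hi mouse 3). The complex III median was -0.22 without pEGFR-Lo mice 3 and 6, and -0.20 to -0.094 with 1 array left out. The cause of these changes was not tested.

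The labels do not say whether mice of the same replicate number were paired. With the replicate block the stricter call higher in pEGFR-Hi was 1, Ndufa4l2.

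Some genes that did not pass changed sign. Atp5e was -0.0032 with centring, -0.041 with renormalization and -0.035 without odd-numbered pEGFR-Hi mice. Without even-numbered pEGFR-Hi mice, Cox5b was 0.038, Cox6a2 -0.14 and Cox8c 0.015. Cox7a1 was -0.16 without odd-numbered ones. With 1 array left out, values ran from -0.024 to 0.016 for Cox5b, from -0.062 to 0.23 for Cox6a2 and from -0.011 to 0.25 for Cox7a1.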
